A study of Mus musculus with 30 samples.

Results

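The genes described here are 32 genes of cholesterol and fatty acid synthesis out of 46078 genes counted. They were chosen by name, but with earlier results of these data known. All 32 had a row in the count table, and all 32 were among the 13880 genes with enough counts to be tested. They comprise 7 genes of the mevalonate arm (Acat2, Hmgcs1, Mvk, Pmvk, Mvd, Idi1 and Fdps) and 11 of the steps from squalene formation to cholesterol (Fdft1, Sqle, Lss, Cyp51, Tm7sf2, Msmo1, Nsdhl, Hsd17b7, Ebp, Sc5d and Dhcr7). A further 6 act in the control of both pathways or in sterol transport (Srebf1, Srebf2, Insig1, Insig2, Scap and Stard4), and 8 make, lengthen or desaturate fatty acids (Acly, Acaca, Fasn, Elovl6, Scd1, Scd2, Fads1 and Fads2).

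The study sequenced RNA from 30 libraries of mouse microglia, the resident macrophages of the brain and spinal cord, to compare mice lacking the autophagy gene Atg7 in these cells, and old mice, with wild-type mice during experimental autoimmune encephalomyelitis (EAE), an induced inflammation of the central nervous system. All animals were C57BL/6. The knockout group (KO) was Atg7fl/fl Cx3cr1CreERT and the wild-type group (WT) Atg7wt/wt Cx3cr1CreERT2, so the controls also carried a Cx3cr1-driven inducible Cre, per the labels. Recombination was induced with 3 doses of 4 mg tamoxifen given 48 h apart. After 18 days or more, the EAE mice were immunised with recombinant mouse myelin oligodendrocyte glycoprotein (residues 1 to 125) and given pertussis toxin. Old mice are labelled wild type for Atg7, and neither their Cre status nor any age in numbers is given in the sources. There were 4 naive libraries each of WT, KO and old mice, 3 WT and 4 KO libraries at day 21 of EAE, and 4 WT, 4 KO and 3 old libraries at day 35. Cells were sorted as live CD11b+, intermediate for CD45 and Ly6G-, and/or eYFP+, and each RNA pooled cells of females and males in equal parts. The labels do not say whether the replicates of a group came from separate mice, so p-values measure the spread between these libraries only.

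Libraries held 4712803 to 11034565 counts (median 6769302). All 9 microglial markers examined were present, but their summed level had a lower mean in each EAE group than in its naive group. The lowest group mean was that of day 21 KO, at 9480 CPM (counts relative to the TMM-scaled library size), against 18220 in day 21 WT and 26247 in naive WT, and the lowest library was day 35 old replicate 1, at 8755. Levels of Cx3cr1 itself averaged 4254 CPM in naive old, 2574 in naive WT and 168.8 in naive KO. Neutrophil markers (8 genes) summed to 31051 CPM in day 35 old replicate 1, 15775 in naive WT replicate 3 and 12542 in naive old replicate 4, although the gate removed Ly6G+ cells, and to 4.23 to 37.2 CPM in day 35 WT. Atg7 counts did not separate KO from WT, with an adjusted p of 0.516 in naive mice, 0.303 at day 21 and 0.338 at day 35 by edgeR's quasi-likelihood test; a count over the whole gene does not show the loss of single exons. In these bulk libraries fewer cells of a type and less RNA per cell cannot be told apart.

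Cholesterol is built from acetyl-CoA through mevalonate, isoprenoid units, squalene and lanosterol, and fatty acids from the same acetyl-CoA through malonyl-CoA. Both pathways are switched by the SREBP transcription factors, encoded by Srebf1 and Srebf2. SCAP escorts these proteins out of the endoplasmic reticulum when sterols are scarce, and the INSIG proteins hold them back when sterols are plentiful. In the inflamed nervous system, microglia take up cholesterol-rich myelin debris and also supply sterols to cells that remake myelin.

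Promoter sequences were looked up for the 32 genes because SREBP proteins bind a sterol regulatory element and act together with the factors NF-Y and Sp1, which bind the CCAAT box and the GC box. RefSeq promoters (GRCm38.p6) were given for 25 of the 32. In the 250 bases before the start, on either strand, the CCAAT box (CCAAT, read from the other strand as ATTGG) was found in 19 of 25 members (76.0%) and in 37.49% of 27025 genes. The GC box (GGGCGG, read from the other strand as CCGCCC) was found in 21 of 25 (84.0%) and in 35.36% of genes. The sterol regulatory element in the form TCACNCCAC, read from the other strand as GTGGNGTGA, was found in 1 of 25 (4.0%), against 1.22% of genes, and that gene was Hmgcs1, where it begins 137 bases before the start. A gene with several promoters counted as holding a motif if any of them did. The 27025 genes were not limited to those tested here, so the higher shares are not read as particular to these pathways. Matches of letters are descriptions and not measured binding. The 200 bases before the start are shown for 5 genes that were called in a comparison below. These windows hold no annotated exon and at least 1 CCAAT box each. The 5 are examples, as windows of Insig2 and Pmvk also meet this rule. The exon-free windows of Acaca and Scap hold no CCAAT box. Capitals mark the sterol regulatory element and the CCAAT boxes on either strand. Hmgcs1 (chr13:119690151-119690350, plus strand) encodes the synthase that commits acetyl units to mevalonate, and Mvd (chr8:122443423-122443622, minus strand) the decarboxylase that makes isopentenyl diphosphate. Ebp (chrX:8193513-8193712, minus strand) and Sc5d (chr9:42264301-42264500, minus strand) encode an isomerase and a desaturase late in cholesterol synthesis, and Fasn (chr11:120824548-120824747, minus strand) encodes fatty acid synthase.
Hmgcs1: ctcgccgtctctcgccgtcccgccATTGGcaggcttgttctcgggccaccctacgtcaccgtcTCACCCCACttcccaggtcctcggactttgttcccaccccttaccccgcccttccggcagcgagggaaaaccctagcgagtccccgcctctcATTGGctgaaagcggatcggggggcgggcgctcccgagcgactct
Mvd: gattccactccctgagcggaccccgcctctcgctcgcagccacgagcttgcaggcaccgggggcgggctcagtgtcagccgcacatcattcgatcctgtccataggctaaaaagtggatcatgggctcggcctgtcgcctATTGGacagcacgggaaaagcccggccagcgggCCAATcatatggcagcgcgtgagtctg
Ebp: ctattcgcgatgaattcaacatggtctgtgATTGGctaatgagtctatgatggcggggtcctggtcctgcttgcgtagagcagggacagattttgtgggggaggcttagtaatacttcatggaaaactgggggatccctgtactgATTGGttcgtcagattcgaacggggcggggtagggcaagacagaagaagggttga
Sc5d: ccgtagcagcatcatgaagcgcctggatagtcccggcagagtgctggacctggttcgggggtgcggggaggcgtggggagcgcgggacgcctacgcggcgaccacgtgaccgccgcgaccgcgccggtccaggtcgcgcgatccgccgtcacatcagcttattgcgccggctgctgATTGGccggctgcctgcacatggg
Fasn: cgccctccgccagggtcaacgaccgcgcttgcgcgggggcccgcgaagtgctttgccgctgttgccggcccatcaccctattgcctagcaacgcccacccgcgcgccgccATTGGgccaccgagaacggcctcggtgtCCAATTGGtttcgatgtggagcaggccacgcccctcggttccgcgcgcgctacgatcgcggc
Hmgcs1 holds a CCAAT box on either side of its sterol regulatory element, Mvd and Ebp hold 2 boxes each and Sc5d 1, and in Fasn a box on one strand shares letters with a box on the other.

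Levels differed widely between the members. On a scale per exon length (CPM per kilobase of exon), Acly, which makes cytosolic acetyl-CoA from citrate, was highest, with group means of 34.2 to 44.2. The desaturases Fads1 (16.4 to 23.7) and Scd2 (12.6 to 20.1) and the isomerase Ebp (9.83 to 17.9) followed. Their ranges of group means overlap, so the order of these 3 is not fixed in every group. The regulators Srebf1 (8.44 to 12.4), Scap (7.94 to 10.9) and Srebf2 (6.00 to 11.8) came next. At the low end, Elovl6 (0.0751 to 0.357), Fdps (0.169 to 0.425), Idi1 (0.200 to 0.545) and Fads2 (0.225 to 0.583) had medians of 6.5 to 8 counts per library, which limits what a comparison of these 4 can show. Scd1, the desaturase close in sequence to Scd2, was at 0.243 to 1.46, far under Scd2 in every group.

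**Figure D1:**
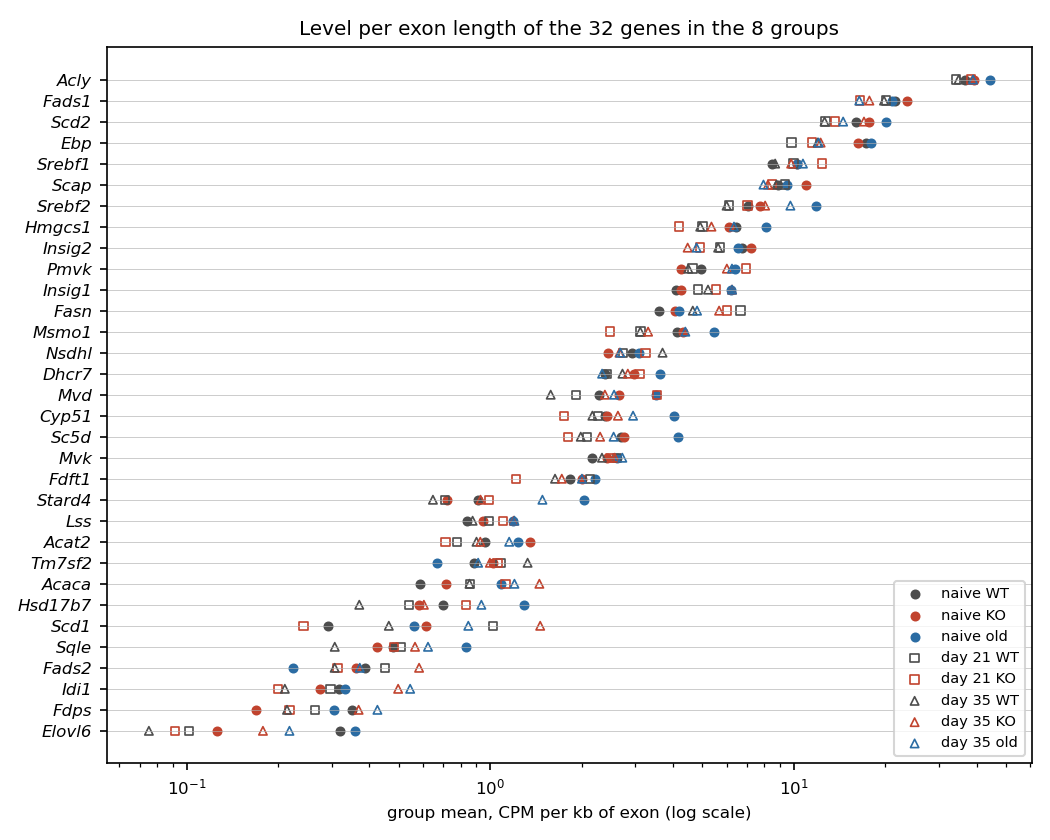
Group means of the 32 genes in CPM per kilobase of exon, on a log axis, ordered by the mean over all libraries; filled circles are naive, open squares day 21 and open triangles day 35, in grey for WT, red for KO and blue for old. Acly is highest at 34.2 to 44.2 and Elovl6 lowest at 0.0751 to 0.357.

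These genes were first compared between old and young naive mice. In naive old microglia 5 of 32 members were called higher than in naive WT and 0 lower (15.6%, against 8.18% of all genes tested, 5.03% higher and 3.15% lower, where called means an adjusted p under 0.05). Their fitted log2 fold change was above 0 for 27 of 32 members, against 48.4% of all genes, with a median of 0.33 against -0.01 for all genes. At an unadjusted p under 0.05 there were 14 members (43.8%, against 23.2% of all genes). By role, the called genes were 0 of 7 in the mevalonate arm, 2 of 11 from squalene to cholesterol, 2 of 6 in regulation and transport and 1 of 8 in fatty acid synthesis. Summed over the 18 sterol enzymes, the level was 220.2 to 266.7 CPM in naive old and 165.4 to 205.7 in naive WT, a ratio of means of 1.29, with no overlap.

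Srebf2 (chromosome 15, 82147181 to 82205379, GRCm38) encodes the SREBP that mainly drives cholesterol synthesis. It stood at 93.4, 65.2, 98.2 and 83.0 CPM in naive old and at 40.3, 47.6, 61.3 and 54.3 in naive WT. All 4 old libraries lay above the WT libraries (log2 fold change 0.74, SE 0.19, adjusted p = 0.0159, edgeR quasi-likelihood test). Stard4, a carrier that moves cholesterol between membranes, stood at 10.8, 10.8, 8.94 and 15.03 CPM in naive old and 3.82, 5.86, 6.13 and 4.56 in naive WT, again without overlap (1.16, SE 0.35, adjusted p = 0.0391).

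Acaca (chromosome 11, 84129672 to 84401651) encodes acetyl-CoA carboxylase, which makes malonyl-CoA. It stood at 20.3, 16.2, 20.02 and 17.5 CPM in naive old and at 8.38, 8.21, 14.5 and 8.98 in naive WT (log2 fold change 0.88, SE 0.21, adjusted p = 0.0107). This call was kept with each of the 8 libraries left out in turn. Cyp51 (chromosome 5, 4081145 to 4104746), the lanosterol demethylase, stood at 19.1, 13.6, 22.2 and 16.4 CPM in naive old and 8.09, 10.6, 13.2 and 10.4 in naive WT (0.75, SE 0.22, adjusted p = 0.0342). Sc5d (chromosome 9, 42251595 to 42264256), the sterol desaturase whose promoter is printed above, stood in a narrow band of 19.6, 20.8, 20.8 and 19.6 CPM in naive old, against 10.4, 14.8, 13.01 and 14.1 in naive WT (0.63, SE 0.19, adjusted p = 0.042). Old and WT libraries did not overlap for any of these 3 genes. Leaving out naive old replicate 1 or 3, or naive WT replicate 1, left 1 called member in place of 5. The shares of all genes called in those fits are not given here, so this count is not read as a result about these genes. With 1 of the 8 libraries left out, the call was lost in 3 fits for Srebf2, 4 for Cyp51 and 6 each for Stard4 and Sc5d, and that of Sc5d was also lost with no filter on low counts and with the i5 index as a replicate block. Cyp51 overlaps Akap9 on the other strand and no source used here gives the strand setting of the counting; Akap9 itself did not pass the test in this comparison (log2 fold change -0.05, adjusted p = 0.737).

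Both naive groups held neutrophil markers, at 6551 to 12542 CPM in old and 1451 to 15775 in WT, and 0 of these 8 markers and 0 of 9 microglial markers were called between them. Of the endothelial markers Flt1 was called higher in old (log2 fold change 3.92, adjusted p = 3.1e-05) and Pecam1 lower (-0.87, adjusted p = 0.000274), and their sum was 76.03 to 147.5 CPM in old and 53.2 to 66.4 in WT, without overlap; the part of this in the members' values was not tested. With naive WT replicate 3, naive old replicate 4 and day 35 old replicate 1, the libraries highest in these markers, left out together, an alternative chosen after the data were seen, 9 members were called higher: the 5 above with Lss, Pmvk, Msmo1 and Acly. In that fit Lss, the lanosterol synthase, had a log2 fold change of 0.87 (adjusted p = 0.00269) and Srebf2 0.85 (adjusted p = 0.0013). The share of all genes called in that fit is not given here. Its 9 calls are therefore not read as a result about these genes. The part of cell make-up in the difference was otherwise not tested. Cx3cr1, 1 of the 9 microglial markers, was not called. It averaged 4254 CPM in naive old (3916 to 4554) and 2574 in naive WT (948.3 to 3585). As the Cre status of the old mice is not known here, age and the Cre allele cannot be told apart.

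**Figure D2:**
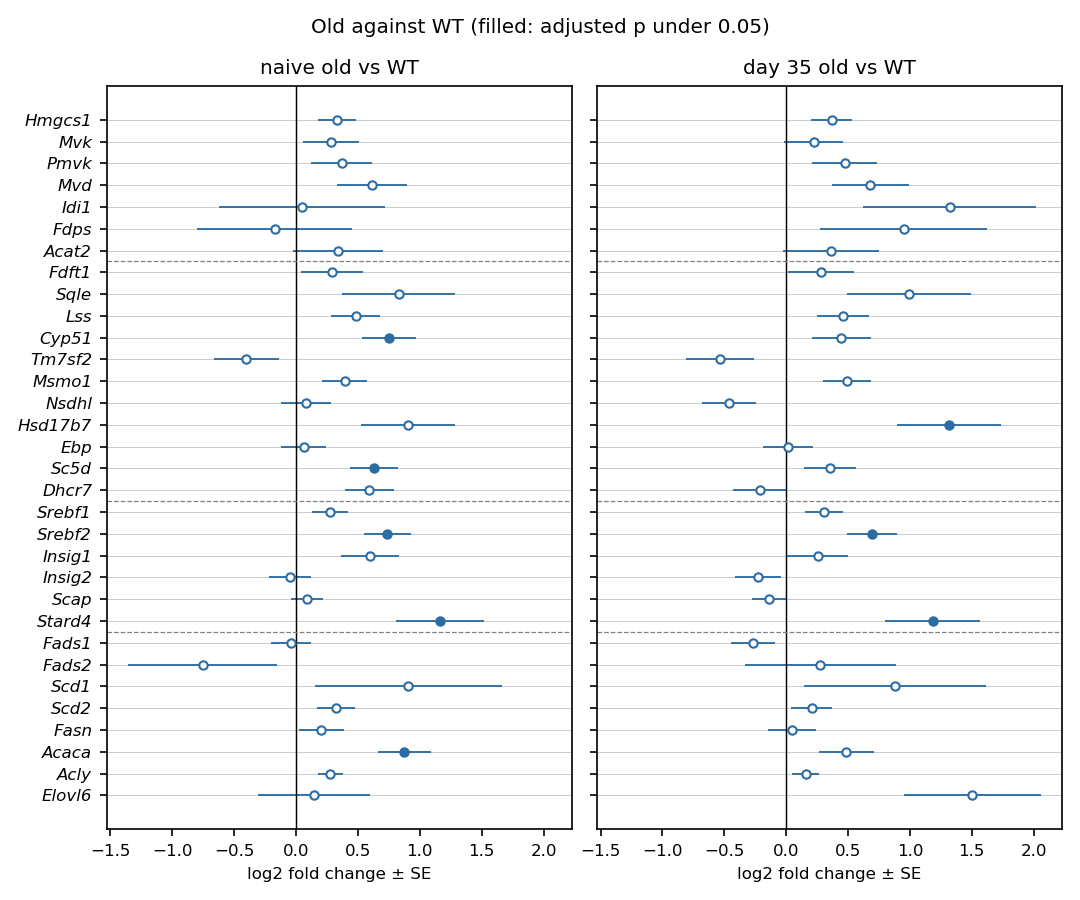
Log2 fold change of old against WT with its standard error for the 32 genes, naive on the left and day 35 on the right; filled points have an adjusted p under 0.05 and dashed lines part the 4 roles. Values lie above 0 for 27 of 32 genes in naive mice and 26 of 32 at day 35.

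At day 35 of EAE old microglia showed 3 of 32 members called higher than WT and 0 lower (9.38%, against 9.45% of all genes, 7.51% higher and 1.94% lower), so the total share was that of all genes. The median log2 fold change was 0.36 against 0.00 for all genes, with 26 of 32 members above 0 (50.6% of all genes). The naive and day 35 comparisons use different libraries, and 24 members were above 0 in both. With 27 and 26 of 32 above 0, a large overlap follows from these numbers alone. The 24 is therefore not read as agreement between the comparisons. EAE scores were 2.75 to 3 in the day 35 old libraries and 1 to 1.5 in day 35 WT. Age and score therefore cannot be told apart here. The members called were Srebf2 (log2 fold change 0.69, SE 0.20, adjusted p = 0.0301), Hsd17b7 (1.31, SE 0.42, adjusted p = 0.0452), a reductase that acts after lanosterol demethylation, and Stard4 (1.18, SE 0.38, adjusted p = 0.0474), by edgeR.

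These 3 calls were not stable. With 1 of the 7 libraries left out, the call was lost in 3 fits for Srebf2 and 5 each for Stard4 and Hsd17b7. Each was also lost with no filter, with the replicate block and with only the groups compared. Srebf2 stood at 103.6, 53.9 and 52.4 CPM in day 35 old replicates 1 to 3 and at 34.8, 43.7, 46.2 and 47.9 in day 35 WT. Stard4 stood at 15.6, 5.36 and 3.91 in old and 2.72, 3.80, 3.76 and 4.19 in WT. Hsd17b7 stood at 8.53, 3.90 and 1.88 in old and 2.15, 0.913, 2.19 and 2.31 in WT. Replicate 1 was highest of all 7 libraries each time, and it is the library with 31051 CPM of neutrophil markers, against 1854 and 68.3 in the other old libraries, and with the lowest microglial sum of its group at 8755. Without it 0 members were called by edgeR. Srebf2 then had a log2 fold change of 0.30 (adjusted p = 0.616), Stard4 0.36 (0.774) and Hsd17b7 0.62 (0.667). The median over the members was then 0.20, with 26 of 32 above 0. Neither the share of all genes called nor that above 0 is given here for this fit. Its counts are therefore not read as results about these genes. All 8 neutrophil markers and 5 of 6 monocyte markers were called higher in day 35 old. The interaction of age and day 35 had 0 members called by edgeR, which called 0.0432% of all genes, and 0 by DESeq2. By edgeR 1 member had an unadjusted p under 0.05 (3.12%, against 11.7% of all genes). Dhcr7 (log2 difference -0.81, SE 0.29, adjusted p = 0.234) and Elovl6 (1.36, SE 0.71, adjusted p = 0.476) had the lowest p.

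From naive to day 35, old microglia had 3 members called lower and 0 higher (9.38%, against 18.4% of all genes, 10.4% higher and 8.03% lower), all late enzymes of cholesterol synthesis. Sc5d fell by 0.71 on the log2 scale (SE 0.21, adjusted p = 0.0201), from the 19.6 to 20.8 CPM given above to 17.7, 10.2 and 9.26. Dhcr7, which catalyses the last step to cholesterol, fell by 0.62 (SE 0.21, adjusted p = 0.0422) and Ebp fell by 0.57 (SE 0.20, adjusted p = 0.0467). Which members were called depended on the libraries, and shares of all genes called are not given for the alternative fits that follow. In the fit without the libraries highest in neutrophil markers 5 were called lower, Sc5d (-1.07, adjusted p = 0.00242), Srebf2 (-0.69, adjusted p = 0.0142), Stard4 (-1.13), Msmo1 (-0.65) and Hmgcs1 (-0.60), and Ebp and Dhcr7 were not. With 1 of the 7 libraries left out, the calls of Ebp and Dhcr7 were each lost in 4 fits and that of Sc5d in 2. The Ebp call was also lost with RLE size factors, no filter, the replicate block and only the groups compared. That of Dhcr7 was also lost with RLE size factors, no filter and only the groups compared. That of Sc5d was also lost with only the groups compared. With all libraries Srebf1 and Srebf2 did not pass the test (log2 fold change 0.07, adjusted p = 0.786, and -0.28, adjusted p = 0.342), and Insig1 had group means of 19.3 CPM naive and 19.4 at day 35. In the same comparison 4 of 9 microglial markers and 5 of 6 border macrophage markers were called lower, and 6 of 8 astrocyte and 2 of 10 oligodendrocyte markers higher; their part was not tested.

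In WT microglia few of these genes passed the test between EAE and naive mice. At day 21, 1 member was called higher and 2 lower than in naive WT (9.38%, against 21.5% of all genes, 9.51% higher and 12% lower), and at day 35, 0 higher and 2 lower (6.25%, against 19.1%, 8.4% higher and 10.7% lower). The naive WT libraries serve both comparisons. Fasn (chromosome 11, 120805846 to 120824547) was higher at day 21, at 75.03, 78.2 and 65.9 CPM against 41.6, 30.5, 42.6 and 43.2 in naive WT (log2 fold change 0.88, SE 0.19, adjusted p = 0.00184). It stood at 44.9 to 61.7 at day 35. Acaca stood at 16.1, 14.5 and 13.3 CPM at day 21 and at 12.2 to 18.3 at day 35, against 8.38, 8.21, 14.5 and 8.98 in naive WT, and did not pass the test (0.53 at both days, adjusted p = 0.094 and 0.0796). Its highest naive WT library is replicate 3, and in the fit without the libraries highest in neutrophil markers Acaca was called higher at both days (0.77, adjusted p = 0.0129 and 0.0112).

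Ebp (chromosome X, 8185329 to 8193512) was lower at both days. It stood at 37.6, 48.1, 32.9 and 40.9 CPM in naive WT, at 18.9, 25.2 and 24.03 at day 21 (log2 fold change -0.80, SE 0.20, adjusted p = 0.00561) and at 25.5, 19.02, 35.1 and 31.03 at day 35 (-0.52, SE 0.19, adjusted p = 0.0461). The day 21 libraries did not overlap with naive WT, while those of day 35 did, and the day 35 call was lost in 6 of 8 fits that left out 1 library and with the replicate block. Elovl6, which lengthens C16 fatty acids, stood at 1.62, 2.35, 2.84 and 1.43 CPM in naive WT, at 0.670, 0.732 and 0.561 at day 21 (-1.63, SE 0.54, adjusted p = 0.0303) and at 0.572, 0.456, 0.470 and 0.433 at day 35 (-2.04, SE 0.52, adjusted p = 0.00728). Naive WT was above EAE in every library, from 2 to 23 counts over all 30 libraries. The day 21 call of Elovl6 was lost in 5 of 7 fits that left out 1 library and with no filter on low counts. Its day 35 call was lost in 0 of 8 fits that left out 1 library. All 8 neutrophil markers and all 6 border macrophage markers were also called lower in WT at both days, and 4 of 9 microglial markers at day 21; Elovl6 was highest in the libraries with the highest neutrophil sums of their groups, at 2.84 CPM in naive WT replicate 3 and 4.02 in naive old replicate 4. The part of those cells in the Elovl6 result was not tested beyond the fit without these libraries, where its log2 fold change was -1.43 (adjusted p = 0.0687) at day 21 and -1.83 (adjusted p = 0.0181) at day 35. Monocyte markers were also called lower, 2 of 6 at day 21 and 3 of 6 at day 35, as were 3 of 9 microglial markers at day 35. At day 21, 2 of 10 oligodendrocyte and 2 of 8 astrocyte markers were called higher. The part of these in the members' values, Fasn included, was not tested.

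The regulators did not pass the test in WT. Srebf1 had a log2 fold change of 0.24 at day 21 (adjusted p = 0.29) and 0.04 at day 35 (0.876). Srebf2 had -0.22 (0.477) and -0.24 (0.396), and Insig1 0.23 (0.539) and 0.34 (0.309). Between day 21 and day 35, 0 members were called in WT by edgeR, which called 0.0648% of all genes, and 0 by DESeq2. By edgeR 1 member had an unadjusted p under 0.05 (3.12%, against 6.74% of all genes). Those with the lowest p were Fasn (-0.52, SE 0.19, adjusted p = 0.473) and Nsdhl (0.43, SE 0.21, adjusted p = 0.742).

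KO microglia at day 21 held the most calls, 3 members higher and 10 lower than in naive KO, which is 40.6% of the members against 45.2% of all genes (22.5% higher and 22.7% lower), so the share of members called was not above that of all genes. The median log2 fold change was -0.09, against 0.01 for all genes. Lower genes lay in every role, with 2 of 7 in the mevalonate arm, 4 of 11 from squalene to cholesterol, 2 of 6 in regulation and 2 of 8 in fatty acid synthesis; the higher ones were Pmvk, Fasn and Acaca. Msmo1, the sterol methyl oxidase, fell by 0.80 (SE 0.19, adjusted p = 0.000926) and Hmgcs1 fell by 0.55 (SE 0.16, adjusted p = 0.00521). Insig2 fell by 0.55 (SE 0.17, adjusted p = 0.00998) and Fads1, the delta-5 desaturase, fell by 0.52 (SE 0.16, adjusted p = 0.0118). Fasn rose by 0.57 (SE 0.18, adjusted p = 0.0111) and Acaca by 0.65 (SE 0.21, adjusted p = 0.0124). The others called were Fdft1 (-0.72), Ebp (-0.50), Sc5d (-0.62), Acat2 (-0.90), Scap (-0.37) and Scd2 (-0.37), which were lower, and the phosphomevalonate kinase Pmvk (0.71). Acat2 shares 39.1% of its 50-base sequences with Acat3 and its values are uncertain for that reason, although Acat3 was counted at 0 to 3 only. The calls of Acat2 and Scd2 were each lost in 6 of 8 fits that left out 1 library. That of Scd2 was also lost under DESeq2, RLE size factors, no filter and the replicate block, and that of Acat2 with no filter and with only the groups compared. Calls of Fdft1 and Ebp were each lost in 4 of 8 fits that left out 1 library. Those of Pmvk, Scap and Acaca were each lost in 2 and those of Sc5d and Fasn in 1.

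By library, Insig2 stood at 25.1, 26.4, 27.3 and 21.3 CPM in naive KO, at 17.1, 13.7, 18.2 and 19.1 in day 21 KO and at 15.5, 15.7, 17.7 and 13.2 in day 35 KO. Naive KO was above both EAE groups in every library. Scap (chromosome 9, 110333288 to 110384950) stood at 81.0, 84.6, 87.1 and 72.6 in naive KO, 56.2, 65.9, 64.9 and 65.0 at day 21 and 68.5, 59.6, 65.8 and 50.8 at day 35, also without overlap. Both are the proteins that gate SREBP, while Srebf2 itself had a log2 fold change of -0.14 at day 21 (adjusted p = 0.561) and 0.05 at day 35 (0.876). Srebf1 had 0.27 (0.121) and -0.06 (0.797), and Insig1 0.39 (0.176) and 0.56 (0.0766). Beside these changes, 8 of 9 microglial markers were called lower in day 21 KO than in naive KO, and the monocyte sum was 2015 to 2778 CPM against 27.7 to 400.3; the part of cell make-up was not tested.

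At day 35, KO microglia had 1 member called higher and 2 lower than in naive KO (9.38%, against 21.4% of all genes, 11.6% higher and 9.81% lower). Insig2 (log2 fold change -0.69, SE 0.17, adjusted p = 0.00545) and Scap (-0.41, SE 0.13, adjusted p = 0.0207) were lower; the Scap call was lost in 3 of 8 fits that left out 1 library. Acaca was higher (1.02, SE 0.21, adjusted p = 0.000984), at 25.9, 28.6, 18.5 and 26.2 CPM against 9.14, 11.8, 16.6 and 11.3 in naive KO, without overlap, and passed with each library left out. In the same comparison 6 of 9 microglial markers were called lower and 1 higher, and 5 of 6 border macrophage markers lower. Astrocyte markers were called higher (7 of 8), as were 6 of 10 oligodendrocyte, 4 of 7 neuron and all 5 erythroid markers. Their part in the members' values was not tested. Between day 21 and day 35, 1 member was called in KO, as higher (3.12%, against 24.9% of all genes, 13.3% higher and 11.7% lower). This was Scd1, the stearoyl-CoA desaturase, at 0.157, 1.30, 2.55 and 0.741 CPM at day 21 and 6.83, 6.14, 1.69 and 13.9 at day 35 (2.57, SE 0.74, adjusted p = 0.0122). The groups overlapped, the highest library, day 35 KO replicate 4, also had the highest oligodendrocyte sum of all 30 (414.2 CPM), and without it the log2 fold change was 2.02 (adjusted p = 0.0509).

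**Figure D3:**
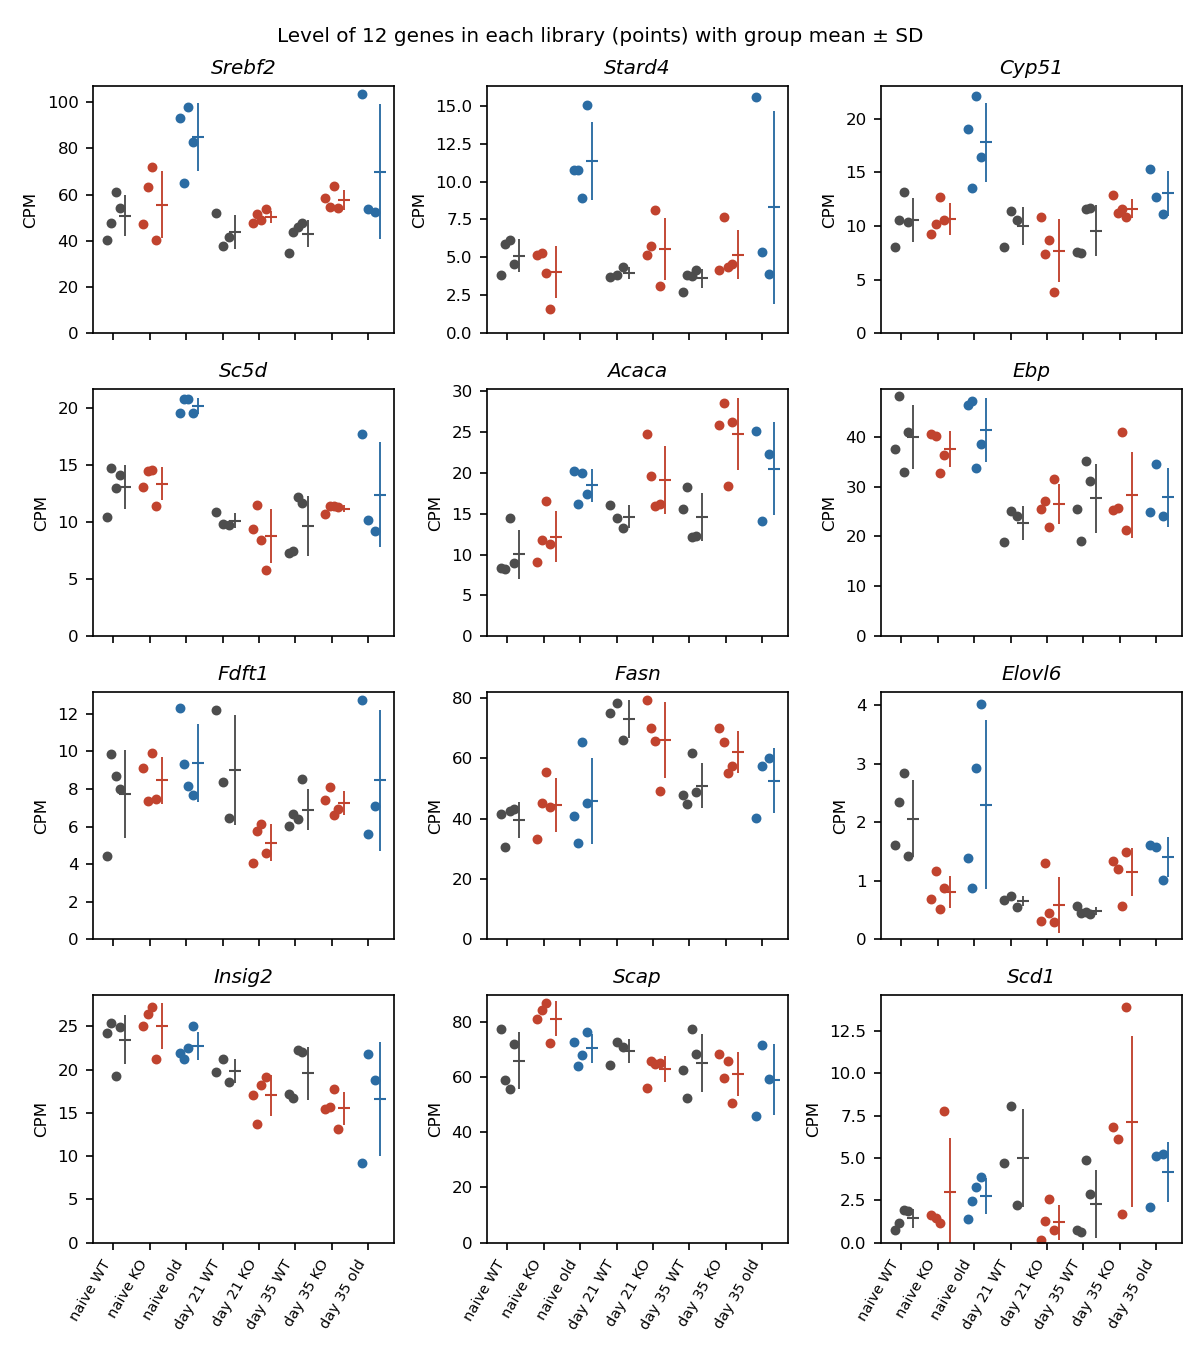
Level in CPM of 12 genes in each library (points, replicate order from left to right) with the group mean and SD beside them, in grey for WT, red for KO and blue for old; axes start at 0 and cut SD bars that would reach under it. Srebf2, Stard4, Cyp51, Sc5d and Acaca are higher in all 4 naive old libraries than in any naive WT library, and 1 day 35 old library is far above the other 2 for Srebf2 and Stard4.

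The direct comparison of genotypes gave few calls at any time. In naive mice 0 members were called between KO and WT by edgeR, which called 0.288% of all genes, and 0 by DESeq2. By edgeR 2 members had an unadjusted p under 0.05 (6.25%, against 9.32% of all genes). The lowest p belonged to Elovl6 (log2 fold change -1.30, SE 0.48, adjusted p = 0.411) and Scap (0.30, SE 0.13, adjusted p = 0.482). Srebf1 had 0.28 (0.569), Srebf2 0.13 (0.886) and Insig1 0.04 (0.982).

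At day 21 Mvd was higher and Fdft1 lower in KO, 2 of 32 members (6.25%, against 19% of all genes, 9.18% higher and 9.86% lower). Mvd stood at 8.32, 7.42, 6.76 and 3.85 CPM in the KO libraries and at 2.85, 3.08 and 4.77 in WT, which overlap (0.86, SE 0.31, adjusted p = 0.0493). Fdft1, the squalene synthase, stood at 4.08, 5.75, 6.16 and 4.59 in KO and 12.2, 8.35 and 6.45 in WT, without overlap (-0.79, SE 0.27, adjusted p = 0.0388). Each call was lost in 5 of 7 fits that left out 1 library. With no filter on low counts, and with the i5 index as a replicate block, 0 members were called. When only these 2 groups were fitted 6 were called. The shares of all genes called in those fits are not given here. Fdft1 lies opposite Ctsb, which was counted at 7085 to 29448 per library and had a log2 fold change of 0.02 here (adjusted p = 0.964). Srebf1 had 0.31 (0.166), Srebf2 0.21 (0.521) and Insig1 0.20 (0.625). In this comparison 8 of 9 microglial markers were called lower and 3 of 6 monocyte markers higher in KO. Also higher were 2 of 6 border macrophage and 4 of 5 T and NK cell markers. All 5 erythroid, 1 of 5 endothelial and 1 of 4 B cell markers were lower. The part of cell make-up was not tested.

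At day 35, 27 of 32 members had a log2 fold change above 0 in KO against WT (49.4% of all genes), with a median of 0.27 against 0.00, and 1 was called, as higher (3.12%, against 2.62% of all genes, 1.79% higher and 0.829% lower). This was Acaca, at 25.9, 28.6, 18.5 and 26.2 CPM in the KO libraries, while the WT libraries held 15.6, 18.3, 12.2 and 12.3, without overlap (0.76, SE 0.21, adjusted p = 0.0413). The call was lost with each of the 8 libraries left out, at log2 fold changes of 0.69 to 0.89. It was also lost (0.54, adjusted p = 0.228) when day 35 WT replicate 3, whose title says wild type and whose knockout status says knockout, was counted as KO. Acaca shares 30.4% of its 50-base sequences with other annotated genes. Srebf2 had 0.42 (0.222), Srebf1 0.17 (0.532) and Insig1 0.26 (0.556). EAE scores were 2.5 to 3 in these KO libraries and 1 to 1.5 in WT, and 5 of 8 neutrophil markers were called higher in KO, so genotype, score and these cells cannot be told apart here.

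No change over the course of EAE was called different between KO and WT. The interaction of genotype with day 21 had 0 calls by edgeR, which called 9.68% of all genes, and 1 by DESeq2. By edgeR 4 members had an unadjusted p under 0.05 (12.5%, against 26% of all genes). These were led by Scd1 (log2 difference -3.06, SE 1.07, adjusted p = 0.0685) and Fdft1 (-0.93, SE 0.37, adjusted p = 0.0994). With day 35 there were 0 by edgeR, which called 0.367% of all genes, and 1 by DESeq2. By edgeR 2 members had an unadjusted p under 0.05 (6.25%, against 17.8% of all genes). These were Elovl6 (2.52, SE 0.71, adjusted p = 0.0884) and Scap (-0.39, SE 0.18, adjusted p = 0.258). For the change from day 21 to day 35 there were 0 by edgeR, which called 2.67% of all genes, and 1 by DESeq2. By edgeR 3 members had an unadjusted p under 0.05 (9.38%, against 19.2% of all genes). These were led by Scd1 (3.70, SE 1.03, adjusted p = 0.0514) and Nsdhl (-0.72, SE 0.29, adjusted p = 0.166). Shares of all genes are not given for the DESeq2 calls.

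**Figure D4:**
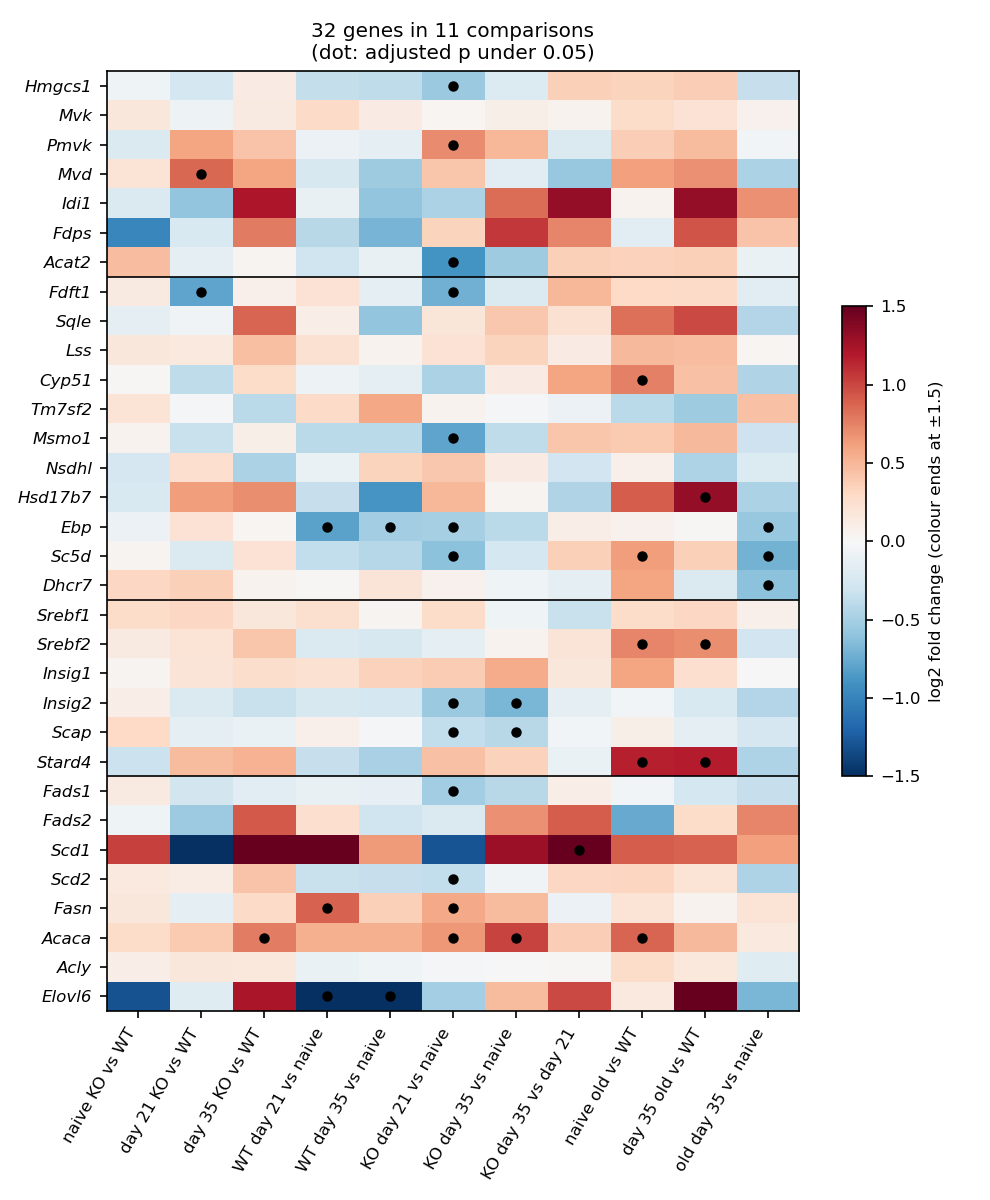
Log2 fold change of the 32 genes (rows, in 4 roles parted by lines) in 11 comparisons (columns), red for higher and blue for lower in the group named before "vs", with colour ending at 1.5 either way; dots mark an adjusted p under 0.05. KO day 21 against naive has 13 dots and the 2 columns of old against WT have dots for higher genes only.

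A further list of 36 genes of the same pathways, of which 33 were tested, was examined in the same comparisons. In naive old against WT 3 were called higher and 0 lower (9.09%, against 8.18% of all genes), among them Soat1, which esterifies cholesterol for storage (log2 fold change 0.59, adjusted p = 0.0013), and Npc2, which carries cholesterol out of lysosomes (0.76, adjusted p = 0.0018). At day 35, 5 were called higher and 2 lower in old (21.2%, against 9.45%), among them Elovl7, Lbr and Acsl1. Lbr, a sterol reductase of the nuclear envelope, stood at 251.0 CPM in day 35 old replicate 1, at 45.0 and 34.9 in the other 2, and at 145.5 in naive WT replicate 3, the libraries high in neutrophil markers. Acsl1 was likewise at 173.8 in that old library and 67.8 and 55.0 in the others. Elovl7 was at 0 counts in all 4 day 35 WT libraries and at 21, 6 and 4 counts in day 35 old.

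In KO at day 21, 2 of the 33 were called higher and 4 lower than in WT (18.2%, against 19% of all genes). Thrsp, a gene long known as a marker of induced fat synthesis, stood at 2.36, 1.67, 6.76 and 5.78 CPM in day 21 KO and 22.9, 25.2 and 25.5 in day 21 WT (log2 fold change -2.54, adjusted p = 5.85e-06). It was at 44.9 to 52.6 in naive KO and 22.96 to 27.3 in day 35 KO, and its interaction was called for genotype with day 21 (-3.14, adjusted p = 4.44e-05) and for day 21 to day 35 (2.35, adjusted p = 0.0015). Lpin1 (-0.66, adjusted p = 0.00423), a phosphatidate phosphatase, and Mylip (-0.55, adjusted p = 0.00457), a ubiquitin ligase, were lower, and Nr1h3, the oxysterol receptor LXR alpha, was higher (1.93, adjusted p = 0.0093), at 5.41 to 12.5 CPM against 1.22 to 2.78. The same 4 genes led the change from naive to day 21 in KO, where 3 of 33 were called higher and 10 lower (39.4%, against 45.2% of all genes). From day 21 to day 35 in KO 4 were called higher and 1 lower (15.2%, against 24.9%), again led by Thrsp, Lpin1, Nr1h3 and Mylip, each in the opposite direction to before. The genotype by day 21 interaction was also called for Lpin1 (-0.93), Npc1 (-0.63) and Mylip (-0.58). In WT, 1 was called higher and 4 lower at day 21 (15.2%, against 21.5%) and 1 higher and 2 lower at day 35 (9.09%, against 19.1%). In KO at day 35 2 were higher and 3 lower than naive (15.2%, against 21.4%), and in old mice 0 higher and 3 lower (9.09%, against 18.4%). These shares lay under those of all genes. No gene of this list was called between naive KO and WT or between day 35 KO and WT. There 4 (12.1%, against 9.32% of all genes) and 7 (21.2%, against 19.3%) had an unadjusted p under 0.05 by edgeR. DESeq2 results were not kept for this list.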

How the data were processed

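The authors deposited raw counts per Ensembl gene in a table of 46078 genes, made with CASAVA, bcl2fastq and STAR on GRCm38 per the submitters' processing notes. How reads were assigned to genes, with which annotation and strand rule, is not given in the sources used here. Libraries came from a stranded low-input total RNA kit per the labels' protocols. EAE score and RNA integrity are scores that the authors deposited in a sample table, per the file headers. That table also gives the group and plate well of each count column. Wells were numbered down each plate column to match them with the numbers in the sample titles. This match is inferred: the groups agreed for 30 of 30 libraries, against 2 with wells numbered along rows. A further 2 columns were not used. Replicate numbers follow accession order.

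GENCODE M21 supplied symbols, coordinates and exon lengths. The filterByExpr function (at least 10 counts, 15 in total) kept 13880 genes, and TMM factors scaled the libraries. In R 4.3.3, edgeR 4.0.16 (glmQLFit, robust) estimated a mean per group over the 30 libraries, with 22 residual degrees of freedom. Quasi-likelihood F tests were run for 16 contrasts, with Benjamini-Hochberg adjustment over all genes tested and calls at an adjusted p under 0.05. The script was tested on simulated data. Alternatives were DESeq2 1.42.0, RLE size factors, no filter, the i5 index as a replicate block, only the groups compared, day 35 WT replicate 3 counted as KO, and each library left out. Members, roles and lists were chosen with earlier results of these data known. In each contrast full statistics are given for at most 6 called members in order of adjusted p (2 where there was no call), and for Srebf1, Srebf2 and Insig1 in genotype and EAE comparisons. At most 4 called genes of the further list are named, and 1 gene of it is not reported here. Members called in the most comparisons are given by library.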

Additional observations from a re-analysis of the deposited data

Results flagged for a closer look

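In groups of 4 libraries, 1 library of a group was set apart from the other 3 by more than the Dixon test allows in 14 cases out of 192 gene and group pairs; chance alone would give about 1 in 20. In naive WT, replicate 3 was highest for Idi1 (1.65 CPM), Lss (13.2) and Acaca (14.5), and replicate 2 lowest for Fasn (30.5). Naive WT replicate 3 is also the naive library with the highest neutrophil sum, 15775 CPM, and the part of this in the 3 values was not tested. In naive KO, Scd1 was highest in replicate 4 (7.77 CPM, against 1.16 to 1.64 in the others). In day 21 KO, Lss (9.65) and Elovl6 (1.30) were set apart in replicate 2, lowest and highest in turn, and Scap (56.2) was lowest in replicate 1. In day 35 KO, Pmvk (7.79) was lowest and Stard4 (7.64) highest in replicate 2, Msmo1 (23.1) highest in replicate 3 and Sc5d (10.7) lowest in replicate 1. In day 35 WT, Hsd17b7 (0.913) was lowest in replicate 2 and Insig1 (24.7) highest in replicate 1. The groups of 3 libraries, day 21 WT and day 35 old, were not examined this way.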

How the results depend on the processing

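The labels give no shared replicate numbers, so the i5 index, which pairs libraries across groups, stood in as a replicate block; it changed the number of members called to 0 for KO against WT at day 21, 1 for WT day 35 against naive, 2 for KO day 35 against day 21, 0 for old against WT at day 35 and 1 for genotype by day 21 to 35 change. Without a filter on low counts the numbers were 0, 1, 0 and 1 for KO against WT at day 21, WT day 35 against naive, old against WT at day 35 and old day 35 against naive. With only the groups compared they were 6 and 2 for KO against WT at day 21 and 35, 5 and 0 for WT day 21 and 35 against naive, 6 and 4 for KO day 35 against naive and day 21, 0 for old against WT at day 35, 0 for old day 35 against naive and 2 for genotype by day 21. DESeq2 gave 2 for KO day 35 against day 21 and 1 for each of the 3 genotype interactions, and RLE factors 2 for KO day 35 against day 21 and 1 for old day 35 against naive. With day 35 WT replicate 3 counted as KO they were 0 for KO against WT and 1 for old against WT at day 35, and 1 for genotype by day 21 to 35 change. Without the 3 libraries highest in neutrophil markers, chosen after the data were seen, they were 9 for naive old against WT, 0 for old against WT at day 35, 5 for old day 35 against naive, and 3 each for WT day 21 and day 35 against naive, with Acaca in place of Elovl6 at day 21 and added at day 35. Leaving out 1 library at a time gave 0 to 2 and 0 to 1 calls for KO against WT at day 21 and 35, 2 to 3 and 1 to 3 for WT day 21 and 35 against naive, 8 to 12 and 2 to 6 for KO day 21 and 35 against naive, 0 to 3 for KO day 35 against day 21, 1 to 6 and 0 to 5 for old against WT naive and at day 35, 0 to 6 for old day 35 against naive, and 0 to 1 for genotype by day 21 and by day 21 to 35 change; it gave 0 throughout for naive KO against WT, WT day 35 against day 21, genotype by day 35 and age by day 35. Over all alternatives, the called members kept their direction in 478 of 478 fits and their call in 332. These members were picked for being called in the same libraries, so their kept direction was largely fixed in advance. Shares of all genes called are not given for these alternatives, so their counts are not read as results about the members. The cause of these changes was not tested.

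Values near 0 for the regulators changed sign. Leaving out 1 library at a time, Srebf2 ran from -0.0164 to 0.256 for naive KO against WT, from -0.269 to 0.00374 for KO day 21 against naive and from -0.0745 to 0.198 for KO day 35 against naive. Insig1 ran from -0.143 to 0.229 for naive KO against WT and from -0.321 to 0.275 for old day 35 against naive, and Srebf1 from -0.0754 to 0.153 for WT day 35, from -0.150 to 0.0344 for KO day 35 and from -0.0579 to 0.192 for old day 35 against naive. With day 35 WT replicate 3 as KO, Srebf1 was -0.0755 for WT day 35 against naive, and Insig1 in old day 35 against naive was -0.0259 with the replicate block and -0.325 without the neutrophil-rich libraries. Elovl6, Fdps, Idi1 and Fads2 had medians of 6.5 to 8 counts per library, and small differences in them were not detectable at this depth.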
